A study of Mus musculus with 36 samples.

Results

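Peaks of K4me3 and K27me3 were examined at 10 genes of MHC class I antigen presentation in mouse pancreas. The 10 genes, of 55413 in the annotation used, were taken by name: the classical heavy chains *H2-K1* and *H2-D1*, the nonclassical heavy chains *H2-Q4*, *H2-Q6*, *H2-Q7* and *H2-T23*, the light chain *B2m*, the peptide suppliers *Tap1* and *Psmb8*, and the transactivator *Nlrc5*. Both marks had been mapped by ChIP-Seq, in which chromatin is pulled down by an antibody to the mark and its DNA is sequenced, in whole pancreata of 12 mice, 3 of each of 4 genotypes. Mice were 2 to 4 months old, received tamoxifen by oral gavage and were taken 22 days later, before any injury. The control group (WT) consisted of C57BL/6 mice or of mice with the Mist1creERT allele only, and the labels call it wildtype. EZ mice carried Mist1creERT/+ with the EZH2[delta]SET allele, KR mice Mist1creERT/+ with another Cre-dependent allele, and KE mice Mist1creERT/+ with both. Mist1 drives the inducible Cre in acinar cells, so the alleles are recombined there, whereas duct, islet, immune and stromal cells of the same tissue keep their alleles. Neither allele can be read from peaks at promoters, so the genotypes could not be checked against the data. Mice are named by genotype and replicate number, as WT2.

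MHC class I molecules show peptides from inside a cell to CD8 T cells. A heavy chain pairs with β2-microglobulin, the proteasome (with *Psmb8* in its immune form) cuts the peptides, and the transporter that contains *Tap1* carries them into the endoplasmic reticulum. *Nlrc5* is the main transactivator of class I genes and acts through the X and Y boxes of their promoters, and interferon and NF-κB act through an interferon-stimulated response element and a κB site. K4me3 marks the starts of active or poised genes. K27me3 is the repressive mark that EZH2, the catalytic subunit of PRC2, deposits. Loss of class I display is a well-known way for tumors, pancreatic cancer included, to escape T cells.

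Of the 10 genes, 8 lie on chromosome 17. On mm10, *H2-K1* spans chr17:33996017-34000347 (minus strand), *Tap1* chr17:34187553-34197225, *Psmb8* chr17:34197721-34201454, *H2-D1* chr17:35262730-35267499, *H2-Q4* chr17:35379617-35385290, *H2-Q6* chr17:35424850-35430055, *H2-Q7* chr17:35439155-35443773 and *H2-T23* chr17:36029773-36032855 (minus strand). *B2m* lies at chr2:122147686-122153083 and *Nlrc5* at chr8:94434356-94527272. All are protein coding.

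The K4me3 peaks described below covered the starts of these genes, so the 250 bases before the RefSeq start (GRCm38.p6) are shown for 4 of them, read in the direction of transcription. *H2-K1* stands for the classical chains, *H2-Q6* and *H2-Q7* are the near-identical pair with the widest range between mice relative to their median, and *B2m* is the shared light chain. Capitals mark matches, on either strand, to GGGNNTTCC (κB-like), GAANNGAA or GAAANNGAA (both like the interferon response element), TGACG (X2-like) and CCAAT (Y box). No match overlapped another in these 4 windows.
H2-K1 (chr17:34000348-34000597, minus strand): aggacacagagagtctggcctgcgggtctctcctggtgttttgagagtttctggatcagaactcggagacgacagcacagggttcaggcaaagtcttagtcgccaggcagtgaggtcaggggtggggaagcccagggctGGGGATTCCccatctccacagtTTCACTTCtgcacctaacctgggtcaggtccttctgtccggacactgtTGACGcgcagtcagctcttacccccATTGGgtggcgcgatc
H2-Q6 (chr17:35424600-35424849, plus strand): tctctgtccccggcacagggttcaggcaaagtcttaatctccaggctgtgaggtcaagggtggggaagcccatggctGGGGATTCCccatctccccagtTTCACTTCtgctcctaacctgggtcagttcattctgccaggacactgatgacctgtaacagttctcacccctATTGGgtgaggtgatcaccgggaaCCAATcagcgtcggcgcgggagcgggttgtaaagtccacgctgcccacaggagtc
H2-Q7 (chr17:35438905-35439154, plus strand): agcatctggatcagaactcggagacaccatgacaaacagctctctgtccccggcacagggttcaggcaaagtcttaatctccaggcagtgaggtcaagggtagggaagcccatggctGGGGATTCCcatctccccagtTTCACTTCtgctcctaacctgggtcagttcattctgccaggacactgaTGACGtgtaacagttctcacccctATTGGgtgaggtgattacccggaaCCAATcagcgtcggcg
B2m (chr2:122147437-122147686, plus strand): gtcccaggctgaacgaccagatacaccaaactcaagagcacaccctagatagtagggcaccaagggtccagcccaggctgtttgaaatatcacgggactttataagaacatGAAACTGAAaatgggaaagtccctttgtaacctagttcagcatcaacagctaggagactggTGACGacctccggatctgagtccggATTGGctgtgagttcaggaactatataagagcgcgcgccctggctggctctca

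RefSeq windows were at hand for 9 of the 10 genes, *Nlrc5* being the other. CCAAT was found in 8 of the 9, against 33.8% of 32851 promoter windows of the same length, and TGACG in 6 of 9 against 17.8%. GGGNNTTCC was found in 5 of 9 (*H2-K1*, *H2-D1*, *H2-Q4*, *H2-Q6*, *H2-Q7*) against 4.98%. These 5 genes also held GAANNGAA (17.2% of all windows), and *B2m* and *H2-T23* held GAAANNGAA (7.13%). The *H2-Q6* and *H2-Q7* windows aligned over 211 columns with 97.2% identity, although *H2-Q6* held no TGACG. *H2-Q6* shared 86.9% with *H2-K1* over 176 columns. The κB-like match began 111 bases before the start in *H2-K1*, 173 in *H2-Q6* and 133 in *H2-Q7*, and in each the GAANNGAA match lay downstream of it, at 89, 151 and 112 bases. *B2m* had its GAAANNGAA match at 139 bases, its TGACG at 78 and its CCAAT at 53. A match is a description of the sequence and not a binding site.

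Libraries held 17400 to 26081 K4me3 peaks and 21420 to 31274 K27me3 peaks, with the fewest of both in WT2. The K27me3 library of WT2 stood apart in that 11.7% of its autosomal peaks overlapped a K4me3 peak of the same mouse. The share was 4.39% in KR1, 2.57% in KE1 and 0.693% to 1.97% in the other 9 mice. K27me3 also covered 5 of 10 acinar marker genes in WT2 and 1 in KR1, and none in the other 10 mice. Comparisons between genotypes are given below with these 3 mice, and without them where stated.

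K4me3 was called at every class I gene in every mouse. All 10 genes had a peak within 3 kb of a transcript start in 12 of 12 mice, as had 16311 of the 55413 annotated genes. At each of the 10 the peak lay over the gene's 5′ end in 12 of 12. Genotypes therefore did not differ in the number of marked genes, which was 10 ± 0.0 in each (SD, n = 3 mice). What varied was the length that K4me3 covered. The peak lists give positions without heights or read counts, so covered length within 3 kb of the starts was the measure of extent, and the depth behind each library is unknown.

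At *H2-K1*, which presents peptides on nearly all nucleated cells, K4me3 covered 2196, 3739 and 2244 bp in WT1, WT2 and WT3, and 2222, 2519 and 2414 bp in the 3 EZ mice. The KR mice had 3552, 2431 and 1991 bp and the KE mice 2482, 2401 and 2091 bp. WT2 and KR1 thus stood above the other 10 mice, and the 4 genotypes overlapped. *H2-D1*, the other classical chain, had the same leading mice with a narrower range, from 2372 bp in WT1 to 3613 bp in WT2 and 3335 bp in KR1, around a median of 2643.5 bp.

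Relative to the gene's median mouse, the variation was widest at the nonclassical pair *H2-Q6* and *H2-Q7*, the Qa-2 genes. K4me3 at *H2-Q6* covered 1019, 3624 and 1164 bp in the WT mice, 1050, 2081 and 1270 bp in the EZ mice, 3012, 1077 and 631 bp in the KR mice and 2425, 1055 and 1028 bp in the KE mice. WT2, KR1 and KE1 were the 3 longest, from 3 different genotypes, and WT2 had 3.23 times the median mouse. At *H2-Q7* the values were 1191, 3339 and 1048 bp (WT), 1328, 1265 and 1275 bp (EZ), 2685, 1026 and 1026 bp (KR) and 2891, 1247 and 1292 bp (KE). The same 3 mice led, and the other 9 lay between 1026 and 1328 bp. These 2 genes share much of their sequence. Of the 75-base stretches in the windows around their starts, 46.5% at *H2-Q6* and 42.5% at *H2-Q7* occur again in the 3.70 Mb that hold the class I clusters, against 24.7% at *H2-T23*, 8.03% at *H2-K1*, 6.83% at *H2-Q4* and 1.97% at *H2-D1*. How reads of such stretches were placed is not given in the sources used here, so the values of *H2-Q6* and *H2-Q7* are uncertain as those of separate genes.

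The other nonclassical chains varied less. *H2-Q4* ranged from 1694 bp (KE3) to 3036 bp (WT2). *H2-T23*, which encodes Qa-1, the ligand of the NKG2A receptor, ranged from 1602 bp (EZ3) to 2780 bp (WT2), with KR1 next at 2193 bp.

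**Figure D1:**
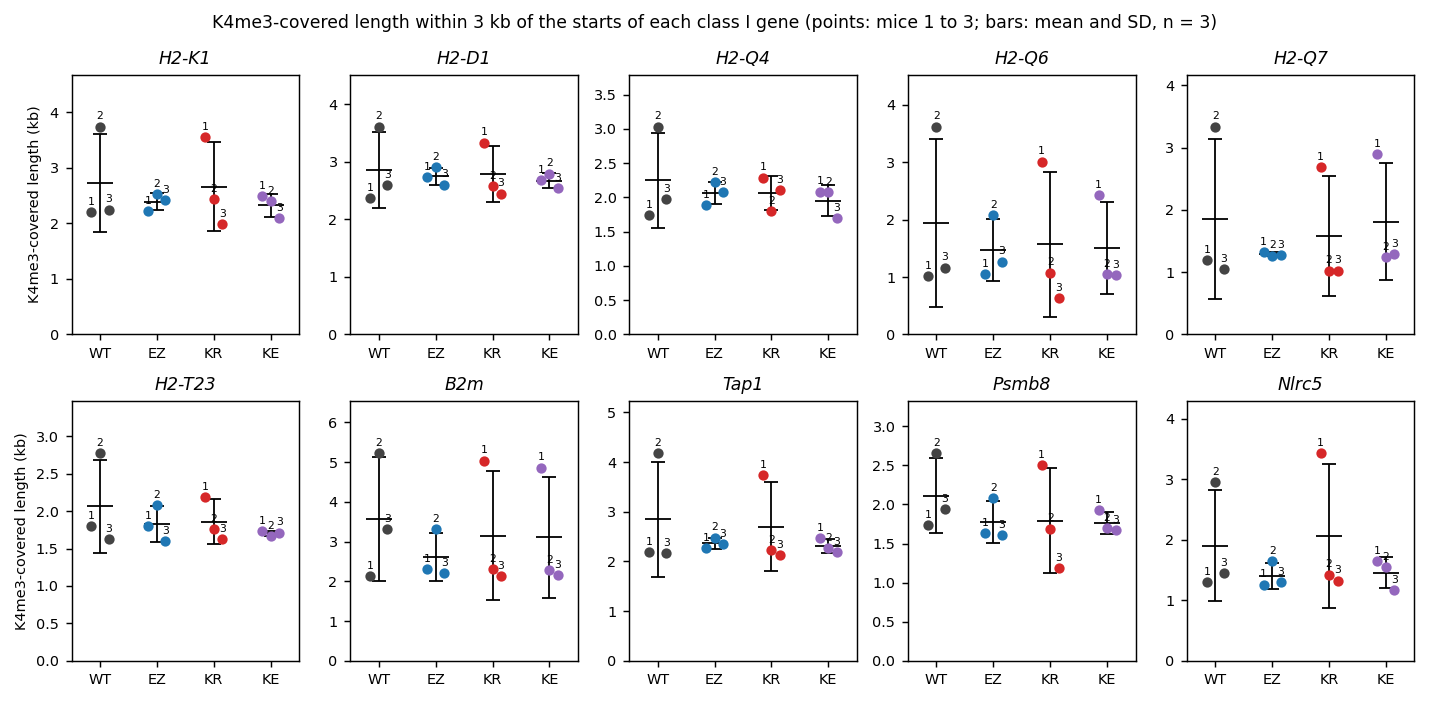
K4me3-covered length in kb within 3 kb of the starts of each of the 10 class I genes, by genotype. Points are mice, numbered by replicate, and bars give the mean and SD (n = 3). WT2 and KR1 are among the 3 longest mice in all 10 panels, and the genotypes overlap in each. Over the 16311 genes with K4me3 in all 12 mice, WT2 is among the 3 longest at 16.7% and KR1 at 27.5%.

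The light chain and the peptide suppliers followed the same mice. *B2m* had 2129, 5232 and 3319 bp in the WT mice, 2315, 3315 and 2203 bp in the EZ mice, 5036, 2297 and 2121 bp in the KR mice and 4858, 2287 and 2162 bp in the KE mice. Its whole peak, which passes the 3 kb limit, was 6871 bp wide in WT2, 5714 bp in KR1 and 4858 bp in KE1, against 2121 to 3319 bp in the other 9. *Tap1* lies head to head with *Psmb9*, a further immunoproteasome subunit, and the peaks over their shared start count for both. They covered 4186 bp in WT2 and 3742 bp in KR1, against 2132 to 2478 bp elsewhere. *Psmb8* had 2661 bp in WT2 and 2506 bp in KR1, and from 1182 bp (KR3) to 2086 bp (EZ2) in the rest.

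*Nlrc5* was the exception to the order of the leading pair, with its longest cover in KR1 (3439 bp) and WT2 next (2960 bp). The other 10 mice had 1168 to 1652 bp. The side on which the longer peaks extended differed between genes, as the plot of peak positions shows. At *H2-Q6* the peak reached from 1494 bp upstream to 2129 bp downstream in WT2, and from 410 bp upstream to 608 bp downstream in WT1. At *H2-D1* the upstream edge in WT2 (532 bp) and KR1 (479 bp) lay within the range of the other 10 mice (345 to 542 bp), and the added length was downstream, where the peaks ended at 3080 and 2855 bp against 2026 to 2391 bp.

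**Figure D2:**
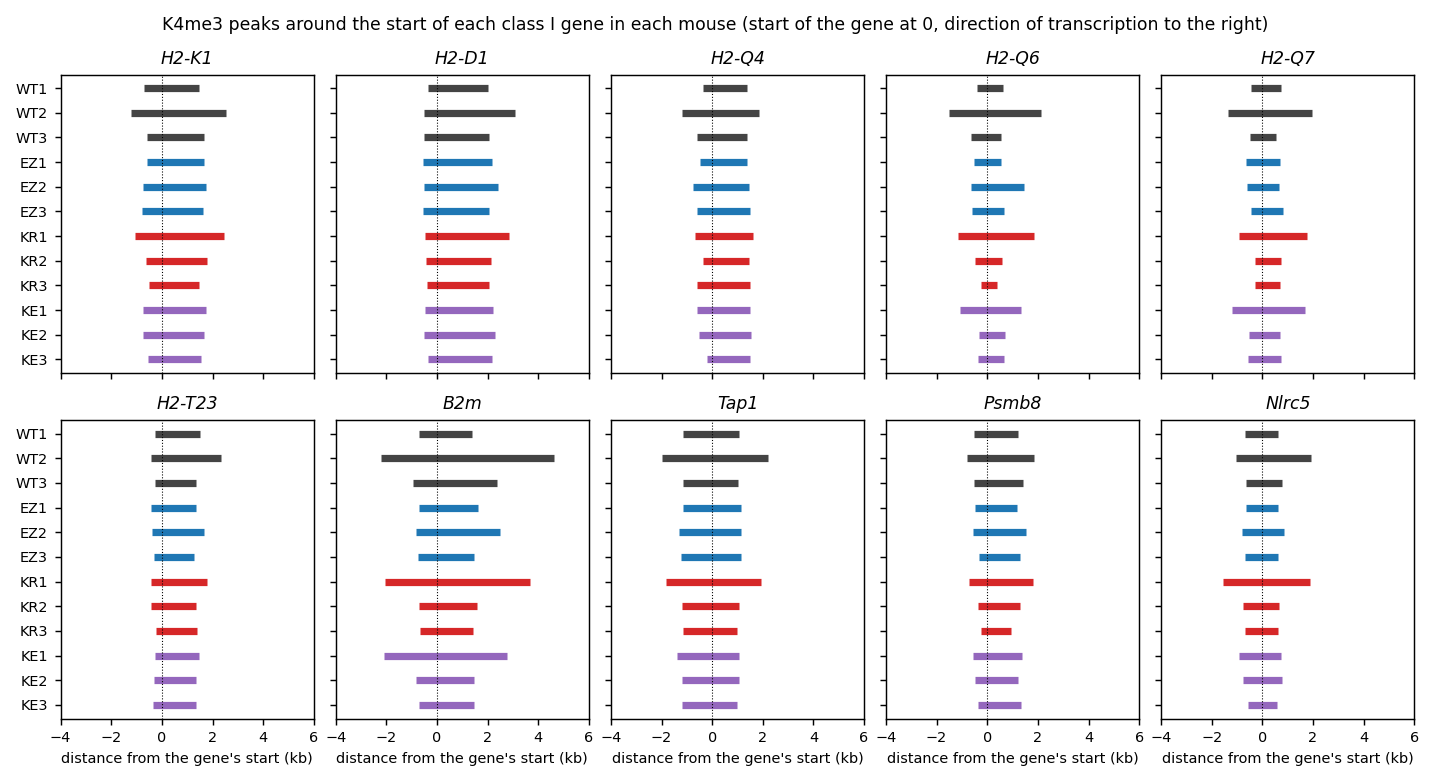
Position of the K4me3 peaks around the start of each class I gene in the 12 mice. The x axis is the distance from the gene's 5′ end in kb, with transcription to the right, each row is a mouse, and lines are peaks colored by genotype. In WT2 and KR1 the peaks are wide at most genes, and in KE1 at *H2-Q6*, *H2-Q7* and *B2m*.

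Each gene's covered length was divided by its median over the 12 mice. The median ratio of the 10 class I genes was 1.72 in WT2 and 1.56 in KR1, followed by 1.13 in EZ2 and 1.10 in KE1, and it lay between 0.918 and 0.995 in the other 8 mice. The 16311 genes with K4me3 in all 12 mice had median ratios of 0.924 in WT2, 0.996 in KR1, 1.01 in EZ2 and 0.967 in KE1. WT2 had the longest cover at 9 of the 10 class I genes and at 7.20% of the 16311. WT2 and KR1 were both among the 3 longest mice at all 10, EZ2 at 7 and KE1 at 3. Of the 16311 genes, WT2 was among the 3 longest at 16.7%, KR1 at 27.5%, EZ2 at 29.4% and KE1 at 9.99%.

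Marker genes of other cell types varied with the same mice. Of 10 immune marker genes, 7 carried K4me3 in WT2 and 7 in KR1, 3 in KE1, 2 in EZ2 and none in the other 8 mice. Their summed K4me3 length was 25.1 kb in WT2, 24.4 kb in KR1, 5.49 kb in KE1 and 1.00 kb in EZ2. *Ptprc*, the pan-leukocyte CD45 gene, was covered over 4163, 4143, 3510 and 501 bp in these 4 mice. T cell genes (*Cd3e*, *Cd3g*) and B cell genes (*Ms4a1*, *Cd79a*) were covered in WT2 and KR1, whereas the myeloid genes *Adgre1*, *Csf1r* and *Itgam* were at 0 in all 12.

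The 10 acinar marker genes were marked in all 12 mice, with a median ratio of 0.640 in WT2 and 0.856 in KR1 and of 0.958 to 1.05 elsewhere. *Cela1*, which encodes an elastase of acinar cells, had 2328 bp in WT2 and 4131 bp in KR1, against 8299 to 11871 bp in the other 10. Of 6 genes of stroma and endothelium, *Pecam1*, an endothelial gene that leukocytes also express, had K4me3 in KR1 (4295 bp), WT2 (4264 bp) and KE1 (501 bp) and in no other mouse. The 3 genes of that list with K4me3 in all 12 mice had a median ratio of 0.75 in WT2 and 0.92 in KR1. For the 4 duct marker genes with K4me3 in all 12 mice the median ratio was 0.692 in WT2 and 0.995 in KR1. The 1 islet marker gene with K4me3 in all 12 mice was at 0.649 and 0.749. Shorter K4me3 in WT2 was thus not limited to acinar genes. In whole tissue, a different share of a cell type and a different mark per cell cannot be told apart, and the part of these cells in the class I lengths was not tested.

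**Figure D3:**
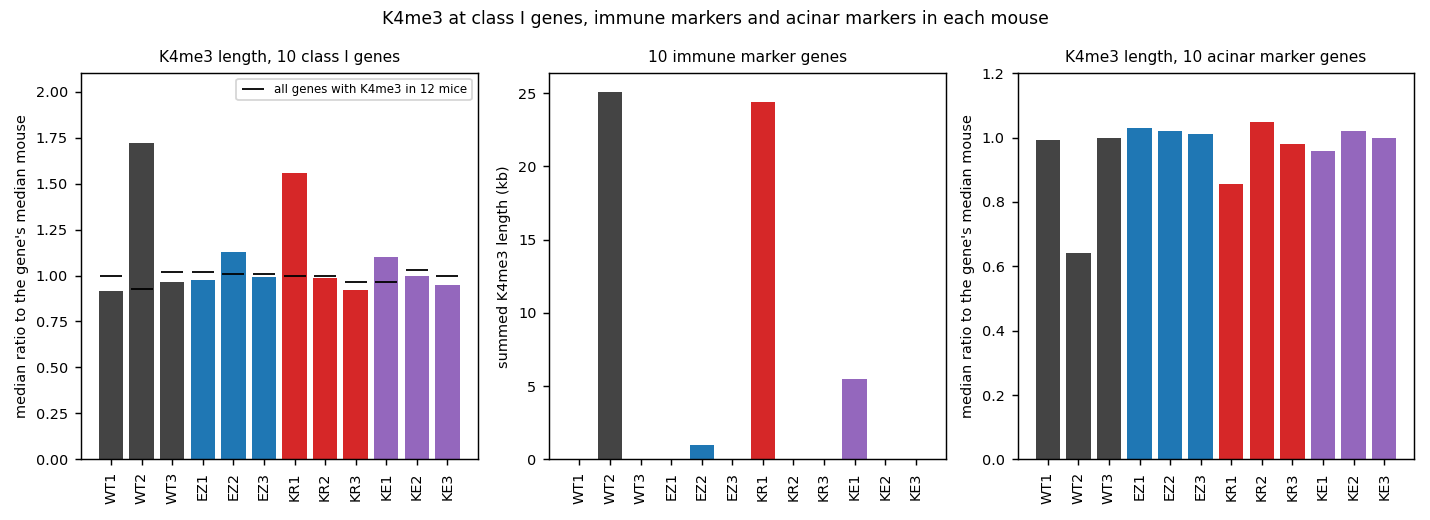
K4me3 in each of the 12 mice, colored by genotype, as the median ratio of covered length to the gene's median mouse over the 10 class I genes (left, with the value over all 16311 genes as a dash), as summed length in kb over 10 immune marker genes (middle), and as the median ratio over 10 acinar marker genes (right). WT2 and KR1 have the highest bars on the left (1.72 and 1.56) and in the middle, and the lowest on the right.

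No difference in K4me3 length between genotypes passed the test at a class I gene. None of the 10 had lengths without overlap between KR and WT, KE and KR, EZ and WT, or KE and WT, where 6.71%, 8.02%, 11.3% and 7.13% of the 21119 genes with K4me3 had. Exact two-sided permutation tests on the means gave p from 0.2 upward at these genes, where 3 mice against 3 cannot go below 0.1, and every adjusted p of these 4 comparisons was 1.0. At *B2m* the mean was 3560 bp ± 1570 in WT, 2611 bp ± 612 in EZ, 3151 bp ± 1630 in KR and 3102 bp ± 1520 in KE (SD, n = 3 each), and each difference was smaller than the SD of at least 1 of the groups compared. Without WT2, KR1 and KE1, lengths lacked overlap at 2 of 10 class I genes between KR and WT, where 36.8% of 20352 genes did, and at 1 of 10 between KE and KR (36.6%), 3 of 10 between EZ and WT (22.2%) and 3 of 10 between KE and WT (33.9%). In K4me3, same-numbered KR and KE mice deviated together, and within these pairs 1 of the 10 genes, *H2-Q7*, changed one way in every pair, as 23.3% of all genes did. Permutation p over 3 pairs cannot go below 0.25, so no gene could have passed the adjusted test in that blocked comparison.

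Stratified tests compared 6 mice with 6. For Ezh2 deletion (EZ against WT and KE against KR together), 0 of the 10 genes reached an unadjusted permutation p under 0.05, against 6.7% of all genes tested, and the smallest was 0.34 at *Nlrc5*, with a difference of -553.8 bp for deletion against no deletion and an adjusted p of 0.863. For the allele of KR and KE (KR against WT and KE against EZ together), 0 of 10 did against 3.13%, with a smallest p of 0.49. Over all genes these exact tests also called none at an adjusted p of 0.05, although 1416 and 661 genes passed an unadjusted 0.05. The difference between KE minus KR and EZ minus WT had permutation p from 0.37 to 0.995 at the 10 genes. Mice were shuffled within KE and KR and within EZ and WT. This p therefore assumes no Ezh2 difference in either pair, and is not an exact test of equal differences. Without WT2, KR1 and KE1, 1 of the 10 genes passed an unadjusted 0.05 for Ezh2 deletion, against 5.31% of 20352 genes, and 0 of 10 for the allele of KR and KE, against 4.2%. The gene was *H2-Q7*, at 206.7 bp for deletion against no deletion (permutation p = 0.0167, the smallest possible, and adjusted p = 0.575), where the difference with all mice was -169.5 bp.

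Of 47 other genes of the pathway, 31 had K4me3 in 12 of 12 mice and 12 in none. The 12 without were *H2-T3* and 11 of the 12 genes of the M cluster, whose products are restricted to special tissues or unknown. *H2-M3*, which presents N-formylated peptides, was the M gene that had it, in 12 of 12 mice. Of the T-region heavy chains, *H2-T10* was at 4022 bp in WT2, 3505 bp in KR1 and 3249 bp in KE1 against 1374 to 2621 bp elsewhere. *H2-T22* and *H2-T24*, and *Irf1*, an interferon-induced activator of class I genes, also had their longest cover in WT2 (3771, 2495 and 4132 bp).

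Genes that supply peptides without being interferon targets did not follow that order. *Calr* and *Canx*, the chaperones of heavy chain folding, had 4078 and 3861 bp in WT2, near the low end of their ranges (4014 to 4782 bp and 3861 to 4868 bp). The constitutive proteasome subunit *Psmb5* ranged from 1368 to 1747 bp, with 1507 bp in WT2. All 11 genes of peptide supply and loading, all 3 constitutive subunits and all 9 regulators were marked in 12 of 12 mice, and none of these 23 had K27me3 in any.

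K27me3 covered little or nothing of the class I starts in most mice. A peak in at least 1 mouse was found at 3 of the 10 genes, and at 18551 of all 55413 genes, a similar share. *H2-K1*, *H2-D1*, *H2-Q4*, *H2-T23*, *B2m*, *Tap1* and *Psmb8* had no K27me3 within 3 kb in any of the 12 mice. *H2-Q6* had 1441 bp in WT2, 146 bp in KR3, 226 bp in KE1 and 205 bp in KE3. *H2-Q7* had 193 bp in WT2, and *Nlrc5* 522 bp in KE1, near a transcript start inside the gene. K27me3 peaks in these lists are at least 5001 bp wide, so these values are the edges of broader peaks, and no base of the 10 windows held both marks in any mouse.

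Class I genes with K27me3 per mouse therefore numbered 0.667 ± 1.15 in WT, 0.0 in EZ, 0.333 ± 0.577 in KR and 1.0 ± 1.0 in KE (SD, n = 3). The 3 genes that could be tested had no lengths without overlap in KR against WT (8.65% of 18551 genes with K27me3 had), KE against KR (13.5%), EZ against WT (2.91%) or KE against WT (3.74%). These 3 entered the test only because at least 1 mouse had a peak.

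The peaks that end at *H2-Q6* belong to a series of K27me3 blocks between the genes of the D and Q cluster. The map of the cluster shows 1, 5 and 3 K27me3 peaks in the WT mice, 4, 1 and 7 in the EZ mice, 7, 6 and 8 in the KR mice and 5, 3 and 4 in the KE mice. No K27me3 peak touched the gene bodies of *H2-D1*, *H2-Q4*, *H2-Q6* or *H2-Q7* in any mouse. Those of *H2-Q2* and *H2-Q10* were touched in WT2 and KR1 and that of *H2-Q1* in all 12. In the 39.6 kb from *H2-Q4* to *H2-Q6*, K27me3 covered 0.0, 23.3 and 6.27 kb in WT, 5.0, 0.0 and 6.27 kb in EZ, 21.2, 17.5 and 16.9 kb in KR and 15.6, 0.0 and 7.72 kb in KE. WT2 and the 3 KR mice were the highest there.

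K27me3 lay within 5 kb of the pair *H2-Q6* and *H2-Q7* on both sides in the 3 KR mice, WT2 and EZ3, and in none of the KE mice. In WT3, KE1 and KE3 it lay within 5 kb on the upstream side only. The K27me3 edge upstream of *H2-Q6* lay 3.77, 3.98 and 2.85 kb from its start in KR1, KR2 and KR3, and the next edge downstream lay 2.43, 3.05 and 2.75 kb past the end of *H2-Q7*. In KE the upstream edge lay at 2.77, 103.0 and 2.79 kb, and the downstream edge at 15.9, 14.3 and 15 kb. EZ3 had edges at 4.41 and 1.68 kb, against 18.2 and 198.0 kb in EZ1 and 103.0 and 712.0 kb in EZ2. WT2 had the nearest edges of all (1.56 and 1.22 kb), WT3 had 4.89 and 15.6 kb, and WT1 had none nearer than 104.0 kb upstream and 736.0 kb downstream. The limit of 5 kb was chosen after the distances were seen, and no share over other genes was taken. These distances were not tested between genotypes. The 9.10 kb between *H2-Q6* and *H2-Q7* held no K27me3 in any mouse.

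**Figure D4:**
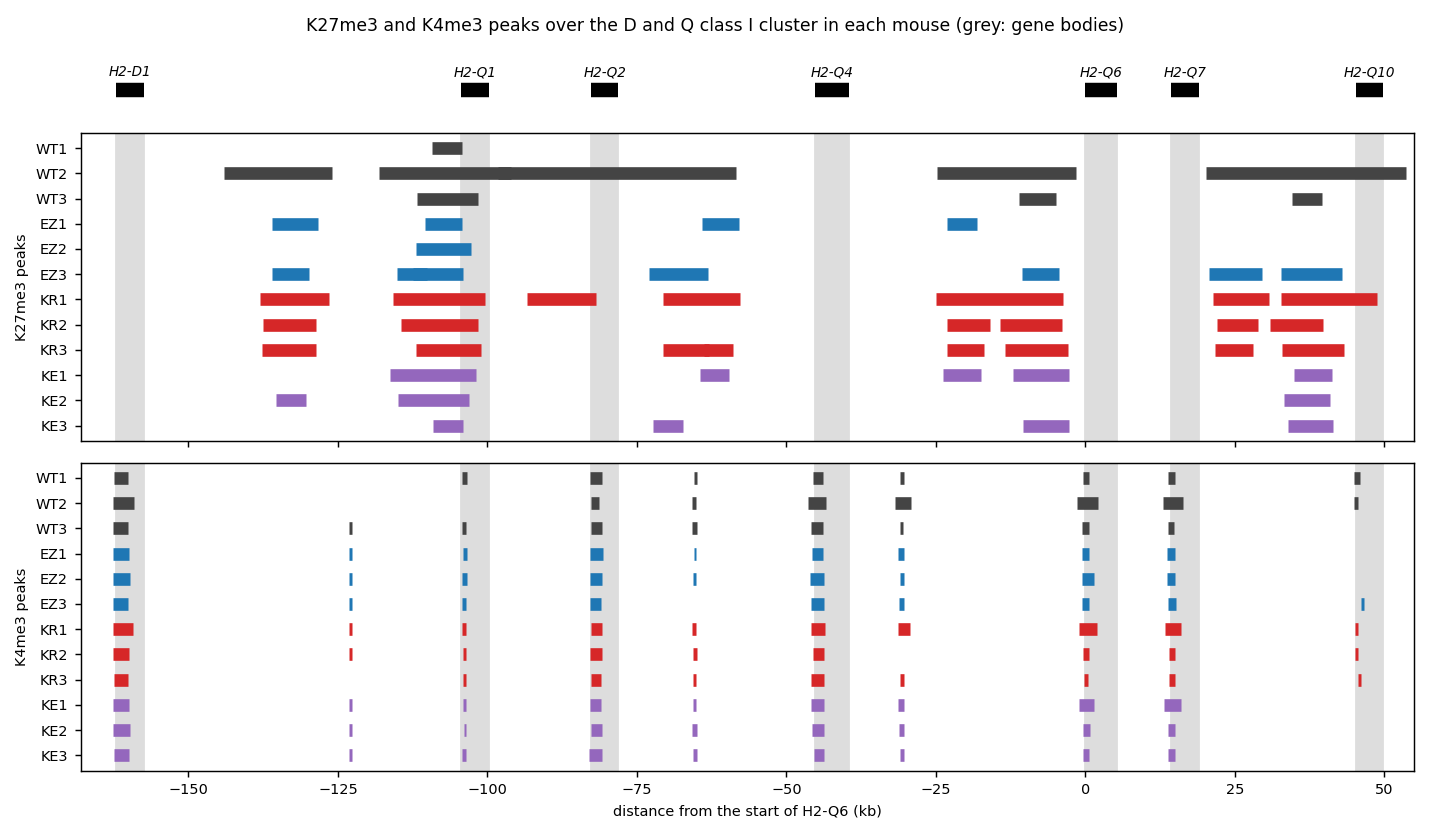
K27me3 (upper panel) and K4me3 (lower panel) peaks over the D and Q cluster, 1 row per mouse and colored by genotype, with gene bodies in grey. The x axis is the distance from the start of *H2-Q6* in kb. K27me3 blocks lie outside the bodies of *H2-D1*, *H2-Q4*, *H2-Q6* and *H2-Q7*, and reach the start of *H2-Q1* in all mice. They come within 5 kb of the pair *H2-Q6* and *H2-Q7* on both sides in the 3 KR mice, WT2 and EZ3. In WT3, KE1 and KE3 they do so upstream only. K4me3 lies mainly over gene starts.

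With the window widened to 10 kb, *H2-Q7* carried K27me3 in 3 of 3 KR mice (5.99, 5.36 and 5.67 kb), 0 of 3 KE mice, 1 WT mouse (WT2) and 1 EZ mouse (EZ3). KR lay above KE without overlap, as 4.68% of the 23656 genes with K27me3 in such windows did. *H2-Q6* had it in 3 KR, 2 KE, 2 WT and 1 EZ mice. *Nlrc5* had it in KR1, KR3 and KE1, and the other 7 genes in none. Because K27me3 forms broad blocks, the study also used a far wider window. With 100 kb before and 3 kb after each start, *H2-Q4* had it in 12 of 12 mice. Its covered length in that window was 51.6, 21.7 and 31.5 kb in KR and 19.3, 16.9 and 10 kb in KE, without overlap, as 8.35% of the 35643 genes with K27me3 in such windows had KE below KR. WT ranged from 5.0 to 77.7 kb and EZ from 9.17 to 27 kb, which overlapped both. K27me3 was present in such windows in 9 mice each at *H2-Q6* and *H2-Q7*, in 8 at *H2-T23*, in 3 each at *H2-K1* and *Nlrc5*, and in none at *H2-D1*, *B2m*, *Tap1* and *Psmb8*.

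Neighbors of these genes in the same cluster differed from them. *H2-Q1* was the class I gene with K27me3 at its start in all 12 mice (3197 to 6154 bp), together with a short K4me3 peak in 11 of 12 (501 to 913 bp), and the marks shared bases in 10 mice. *H2-Q2* had K27me3 in WT2 (8758 bp) and KR1 (3776 bp) alone. *H2-Q10*, which encodes a secreted class I molecule of liver, had it in WT2 and KR1 (6009 bp in each), EZ3 (611 bp) and KR3 (926 bp). Of the M genes, *H2-M5* and *H2-M9* had it in 10 mice each. The pathway genes with K27me3 in WT2 alone, the pattern of *H2-Q7* over the 12 mice, were *Azgp1*, *H2-M10.1* and *H2-M10.5*.

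K27me3 length was then summed over the whole class I clusters of chromosome 17, extended by 3 kb. The K cluster (chr17:33971659-34003347) held none in any mouse. Over the D and Q cluster (chr17:35259730-35477563) K27me3 covered 5.0, 134.0 and 21.5 kb in WT, 25.2, 9.17 and 52.3 kb in EZ, 98.2, 54.9 and 65.0 kb in KR and 41.3, 24.6 and 25.3 kb in KE. The KR mice lay above all EZ and KE mice and above WT1 and WT3, and WT2 lay above all others.

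KE was below KR in each of the 3 clusters with K27me3. The mean over the D and Q cluster was 30.4 kb ± 9.46 in KE and 72.7 kb ± 22.6 in KR (SD, n = 3), a difference of -42.3 kb. Over the T cluster (chr17:36002695-36193287) it was 17.7 kb ± 14.3 against 44.2 kb ± 5.5, and over the M cluster (chr17:36281227-37486552), which also holds many genes that are not class I, 326.0 kb ± 47.4 against 403.0 kb ± 28.9. The mice did not overlap in any of the 3, and of 9158 tiles of 200 kb on the autosomes with K27me3, 11.7% had KE below KR in this way. The tiles are near the D and Q (218 kb) and T (191 kb) clusters in length. The M cluster spans 1210 kb, so 11.7% is no matched share for it. The exact permutation p was 0.1 in each of the 3 clusters, the smallest that 3 against 3 allows, and 0.7 after adjustment over 28 tests. Over all 4 clusters the difference was -145.0 kb (permutation p = 0.1, adjusted p = 0.56).

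The comparison of KR with WT depended on which WT mice entered it. Over the D and Q cluster WT averaged 53.3 kb ± 69.9 and KR 72.7 kb ± 22.6 (exact permutation p = 0.7). Without WT2, the KR mice were above WT1 and WT3 without overlap in the D and Q, T and M clusters. The same held in 19.2% of the 200 kb tiles, which are far shorter than the M cluster. Over all 4 clusters, leaving out WT2 raised the difference from 89.9 kb to 227.0 kb (exact permutation p = 0.1). It was -5.22 kb without WT1 and 48.1 kb without WT3. Over the D and Q cluster alone, WT1 and WT3 had 5.0 and 21.5 kb against 54.9 to 98.2 kb in KR.

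EZ averaged 28.9 kb ± 21.8 over the D and Q cluster, a difference of -24.5 kb from WT (exact permutation p = 0.9), and over all 4 clusters the difference of -80.5 kb became 56.4 kb without WT2. Ezh2 deletion, taken over both pairs of genotypes, had a permutation p of 0.15 over the D and Q cluster, 0.06 over the T cluster and 0.23 over the M cluster, with adjusted values of 0.84, 0.7 and 1.0. KE minus KR and EZ minus WT differed by -17.8 kb over the D and Q cluster (permutation p = 0.76) and by -64.9 kb over all 4 (permutation p = 0.735). Without WT2, KR1 and KE1, Ezh2 deletion had permutation p of 0.483, 0.367 and 0.667 over the D and Q, T and M clusters. KE minus KR and EZ minus WT then differed by -50.6 kb over the D and Q cluster (permutation p = 0.0667) and by -187.0 kb over all 4 (permutation p = 0.0333), each with an adjusted p of 0.286 over 12 tests. As at the genes, these p values assume no Ezh2 difference in either pair and are not exact tests of equal differences. Autosomal K27me3 covered 149.1 to 175.8 Mb in WT, 181.5 to 225.6 Mb in EZ, 177.6 to 223.9 Mb in KR and 136.3 to 186.7 Mb in KE, so 2 of the 3 KE mice (150.1 and 136.3 Mb) lay below all KR mice over the autosomes too, and the part of this in the cluster lengths was not tested.

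**Figure D5:**
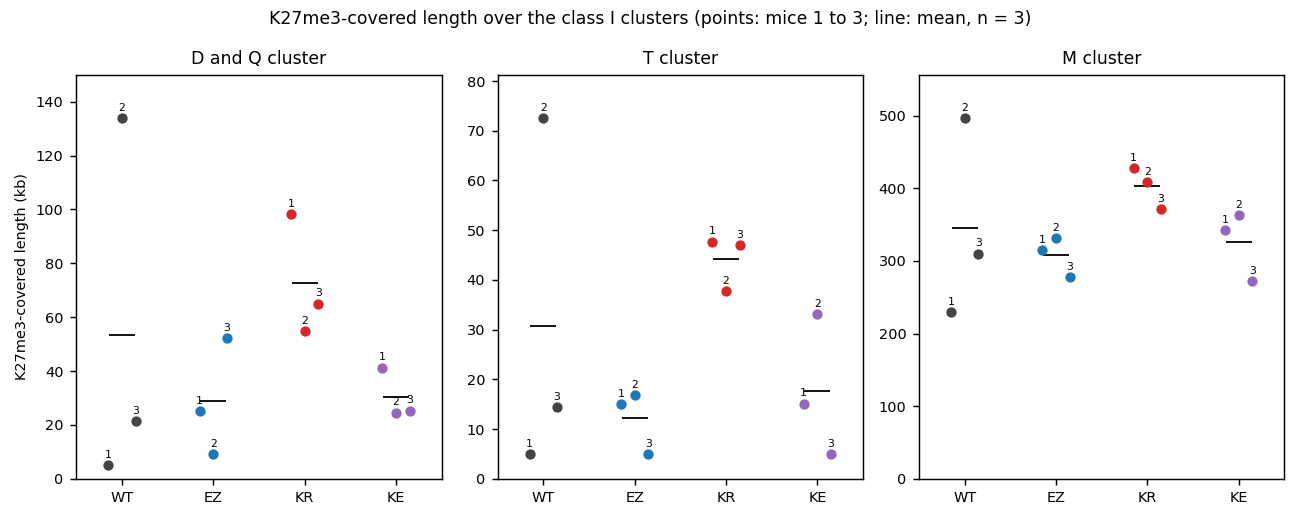
K27me3-covered length in kb over the D and Q, T and M clusters of chromosome 17, by genotype. Points are mice, numbered by replicate, and lines give the mean of 3 mice. The 3 KR mice lie above the 3 KE mice in each panel, and WT2 lies far above WT1 and WT3.

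K4me3 over the D and Q cluster was longest in the mice that led at *H2-Q6* and *H2-Q7*. It covered 18.9 kb in WT2, 17.6 kb in KR1, 14.6 kb in KE1 and 13.1 kb in EZ2, and at most 11.8 kb in the other 8 mice. The 4 mice come from 4 genotypes, and the permutation p of the 4 comparisons between genotypes lay between 0.5 and 1.0. WT2 and KR1 had the longest cover of both marks over this cluster. At *H2-Q2*, in contrast, WT2 (1401 bp) and KR1 (1730 bp) had the shortest K4me3 of the 12 mice, and at *H2-Q1* WT2 was the mouse without a peak. In the M cluster, where 11 of 12 class I genes lack K4me3, the K4me3 length ranged only from 15.9 to 18.4 kb.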

How the data were processed

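The authors aligned ChIP-Seq reads to mm10 with Bowtie2 after FastQC and ran HOMER findPeaks (histone mode) on each library, with input and local background as reference (versions not given in the sources used here). How they treated reads that map to several places was not stated. The 24 deposited peak lists give positions and a score that the authors left at 1 for every peak, so depth is unknown and no interval for counting error could be given. The 12 input samples were not used here, and the allele of KR and KE and 1 marker gene are not reported here by name. All peaks lay within the chromosome lengths of GRCm38.

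Genes and starts came from GENCODE vM21 and promoter sequences from RefSeq (GRCm38.p6). Peaks of a library were merged, and the length covered within 3 kb of any transcript start of a gene, or over a cluster, was taken per mouse. Exact permutation tests over mice, two-sided, compared the means (smallest p 0.1 for 3 against 3, 0.005 for the stratified tests), with Benjamini-Hochberg adjustment over all genes with a peak in at least 1 mouse. A comparison was called without overlap when all mice of 1 genotype lay above all of the other. The labels give 1 sample per mouse and mark, and whether mice shared a litter is not stated. Replicate numbers were taken to pair mice only where the deviations of every same-numbered pair from their genotype means correlated over 0.1, which was so for K4me3 in KR and KE (0.29 to 0.52). The code was tested on simulated peaks.

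Members, lists, motifs and tests were chosen with earlier results of these data known. Text names the 10 members, other listed genes with K27me3 in 3 of 3 mice of 1 genotype and 0 of 3 of another (*Gcg*, a marker of islet alpha cells, in 0 WT, 1 EZ, 3 KR and 2 KE mice) or nearest to *H2-Q7* in K27me3, and further genes chosen after their values were seen. The alternatives changed the window, the starts, the overlap, the peak width, merging, the number of peaks, the pairing, the region, the genes tested and the mice. Leaving out WT2, KR1 and KE1 together, the tiles, the counts in windows of 10 kb and from 100 kb upstream and the stretches between genes were chosen after seeing the data. Python 3.11.15, numpy 2.4.6 and pandas 2.3.3 were used.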

Additional observations from a re-analysis of the deposited data

How the results depend on the processing

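K4me3 was called at 10 class I genes per mouse under the main settings and under every window, start, overlap and merging choice and with any mouse left out. It was 9.92 with K4me3 peaks of at least 1 kb, and 9.92 with the 16912 widest autosomal peaks of each library. The count of class I genes with K27me3, -0.333 for KR minus WT, became 1.67 in the 10 kb window and 2.0 with 100 kb before and 3 kb after each start. KE minus KR, 0.667, became -1.67 and -0.667, and EZ minus WT, -0.667, became 0.667 with the latter. Leaving out each mouse gave -0.667 to 0.333, 0.167 to 1.17 and -1.0 to 0.0 for these comparisons. Over the 4 clusters, leaving out each mouse gave -5.22 to 227.0 kb for KR minus WT, -169.0 to -110.0 kb for KE minus KR and -176.0 to 56.4 kb for EZ minus WT. The sign of KR minus WT turned without WT1 (-5.22 kb) and that of EZ minus WT without WT2 (56.4 kb), and the cause was not tested. KE minus KR over the clusters stayed negative under all alternatives run, at -155.0 kb with peaks joined, -98.0 kb with equal numbers of peaks and -131.0 kb without WT2, KR1 and KE1. No gene reached an adjusted p of 0.05 in either mark under any alternative. Only the stratified tests could have called one. Permutation p cannot go below 0.1 between 2 genotypes, or below 0.25 with the replicate number as a block. The 3 kb minimum removed no K27me3 peak.

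Without WT2, KR1 and KE1, EZ minus WT over the clusters was 56.4 kb. WT2 had the longest K4me3 cover at 5 class I genes in the 1 kb window, against 9.

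The replicate numbers shared by the genotypes gave no pairing for K27me3, where no comparison had every same-numbered pair correlated over 0.1 (-0.29 to 0.18 over 18 pairs), nor for K4me3 outside KR and KE (-0.70 to 0.49). With the replicate number as a block, the K27me3 differences over the clusters were the same (89.9, -145.0 and -80.5 kb) with permutation p of 0.75, 0.25 and 0.75, where 3 pairs cannot go below 0.25. In K4me3, 2 class I genes changed one way in every pair of EZ and WT (*Nlrc5* and *Psmb8*), as 25.2% of all genes did, and none in KR and WT (13.8%) or KE and WT (16.1%).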

Other observations

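The D and Q cluster also carried K4me3 away from the genes listed. A peak 30.5 kb upstream of *H2-Q6*, at the start of *H2-Q5*, which the annotation gives as a polymorphic pseudogene, was found in 11 of 12 mice. It covered 2655 bp in WT2, 2107 bp in KR1 and 1036 bp in KE1, against 501 to 976 bp in the 8 others with a peak. At *H2-Q3*, an unprocessed pseudogene, 11 mice had a peak of 501 to 815 bp, with 634 bp in WT2.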
